A study of Mus musculus with 3 samples.

Results

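The genes described here are 45 tissue-restricted genes whose transcripts belong to germ cells, neurons, endocrine cells, liver parenchyma, epithelia, connective tissue or muscle, and which a blood stem or progenitor cell would be assumed to keep silent. They were chosen by name with earlier results of these data known. They also had to lie in chromosome segments where the deposited values could be read. All 45 were found among the 38205 gene identifiers of the tables with an OK status in every library. RNA sequencing was done on LSK cells of the C57Bl/6 fetal liver at E14.5 of gestation, a sorted fraction that lacks lineage markers, carries Sca1 and c-Kit, and holds blood stem cells and multipotent progenitors. The 3 libraries came from wild-type (WT) embryos and from DNMT3B7 transgenic embryos, which carried the transgene on 1 allele (hemizygous) or on both (homozygous). DNMT3B7 is a shortened variant of DNMT3B, an enzyme that places methyl groups on DNA. Each library was 1 pool of cells from 4 to 5 embryos of that genotype. The promoter that drives the transgene is not stated in the labels, and transgene expression was not analysed here, so the genotype labels are unchecked.

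In somatic cells many promoters that are rich in CG dinucleotides and serve the germ line carry DNA methylation, which helps to keep the genes silent, and loss of that methylation can let some of them be transcribed. Genes with CG-poor promoters usually depend on transcription factors of their own tissue. The question addressed to these genes is therefore whether any that is silent in WT cells gains expression with the transgene. With 1 library per genotype no test between genotypes was possible, and each difference compares libraries and has no replicate check.

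Values are deposited FPKM (fragments scaled by transcript length and library size) divided by 1 common factor, 4246, and a value of 1 was taken as the minimum for expression. The step between low values gave what 1 fragment is worth: a value of 1 on a transcript of 2000 bases stood for 7.27, 7.65 and 6.92 fragments in the WT, hemizygous and homozygous libraries, the order kept for all triplets of values. Fragments per gene were estimated from this step and the median annotated transcript length, and their 95% intervals (exact Poisson, or exact conditional for ratios) cover counting error only. The libraries held about 3000000, 2980000 and 2300000 estimated fragments on listed genes with the median transcript length, and 5660000, 5910000 and 4800000 with the longest, which puts the hemizygous library ahead of the WT. Mitochondrial mRNAs took 63.7%, 60.0% and 51.0% of the fragments in the usable segments. Around each of these genes, between 7 and 19 of the 20 nearest coding genes (18 for Mmp3) reached a value of 1 in the WT library. All 24 constitutive genes listed for comparison in the segments did so in every library. The segments were kept for their share of coding genes with high deposited FPKM, and these genes were taken from inside them. That choice favours such counts, so they cannot show separately that a gene without a value was silent. Ly6a (Sca1) and Kit, on which the cells were sorted, and Cd34 lay outside the segments and were not used. The 7 blood stem and progenitor genes within them had values from 18.9 to 1413, with Tfrc, Dnmt3a and Cd47 the highest.

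Promoter sequences are shown because CG content sets how much DNA methylation a promoter can carry. RefSeq windows on GRCm38.p6, which is not the mm9 build of the files, matched 35 of the 45 genes by symbol (Actn3, Catsper1, Dppa2, Dppa4, Gap43, Grin2a, Kng1, Masp1, Morc1 and Trp63 were not matched), and the 250 bases before the annotated start were searched for the dinucleotide CG, whose reverse complement is itself. The 5 printed here belong to the gene with the highest values (Muc13), the gene with the largest fall (Popdc2), 2 of the 3 genes that reached a value of 1 in the homozygous library alone (Mmp13 and Tnp2), and, for contrast, a CG-rich gene listed at 0 throughout (Sox1). For Muc13 the second of the 2 windows is shown, which holds 4 CG, while the other holds 0. Capitals mark each CG.
Muc13, chr16:33794239-33794488, + strand: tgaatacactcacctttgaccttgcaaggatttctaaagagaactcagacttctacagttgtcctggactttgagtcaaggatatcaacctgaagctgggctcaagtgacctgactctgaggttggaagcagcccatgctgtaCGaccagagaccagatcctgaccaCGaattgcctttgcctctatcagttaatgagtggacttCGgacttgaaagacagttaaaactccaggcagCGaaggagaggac
Popdc2, chr16:38361940-38362189, + strand: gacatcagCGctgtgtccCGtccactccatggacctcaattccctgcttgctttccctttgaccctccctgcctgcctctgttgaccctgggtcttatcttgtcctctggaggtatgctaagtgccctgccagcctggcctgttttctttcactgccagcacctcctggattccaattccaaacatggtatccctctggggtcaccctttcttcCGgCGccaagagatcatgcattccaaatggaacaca
Mmp13, chr9:7272264-7272513, + strand: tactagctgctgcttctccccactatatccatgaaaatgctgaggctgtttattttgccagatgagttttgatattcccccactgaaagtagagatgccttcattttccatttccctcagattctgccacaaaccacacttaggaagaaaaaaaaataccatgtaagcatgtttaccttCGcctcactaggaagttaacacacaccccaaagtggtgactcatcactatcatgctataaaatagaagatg
Tnp2, chr16:10788656-10788905, - strand: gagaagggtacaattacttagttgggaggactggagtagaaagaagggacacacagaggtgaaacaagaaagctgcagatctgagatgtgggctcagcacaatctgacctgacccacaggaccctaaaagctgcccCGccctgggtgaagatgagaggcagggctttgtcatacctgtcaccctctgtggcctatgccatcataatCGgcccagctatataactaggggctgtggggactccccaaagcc
Sox1, chr8:12395269-12395518, + strand: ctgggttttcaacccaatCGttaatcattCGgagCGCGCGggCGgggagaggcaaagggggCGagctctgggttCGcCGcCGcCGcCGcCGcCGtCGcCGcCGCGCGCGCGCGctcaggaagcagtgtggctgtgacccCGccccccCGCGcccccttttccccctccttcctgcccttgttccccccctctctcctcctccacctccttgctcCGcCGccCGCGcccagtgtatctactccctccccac

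The share of all windows with at least the same ratio of observed to expected CG was 59.3% for Muc13 (by the CG-richer of its windows, the choice made for every gene with several), 65.3% for Popdc2, 84.6% for Mmp13, 83.1% for Tnp2 and 6.38% for Sox1. The promoters of the set were mostly poor in CG. The ratio of observed to expected CG was at least 0.6 in 6 of the 35 matched genes (17.1%), against 33.95% of all 32851 windows and 54.8% of the 737 coding genes of the segments that could be matched. The 6 genes were Cldn1, Epha3, Epha6, Igsf11, Lsamp and Sox1, and none of them reached a value of 1 in any library. Only 8 of the 35 matched genes did, among them Robo1 with a ratio of 0.59, just under the limit. With so few genes nothing is read from the absence among the 6. Sox1, a transcription factor of neural progenitors, held 29 CG in its window and was listed at 0 in all 3 libraries. Among the segment genes as a whole, 92.3% of the 404 with a ratio of at least 0.6 had a value of at least 1 in the WT library, against 46.8% of the 333 below it. Prm1, Adipoq and Hrg held no CG in the window. A CG count describes the letters alone, and methylation was not measured.

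**Figure D1:**
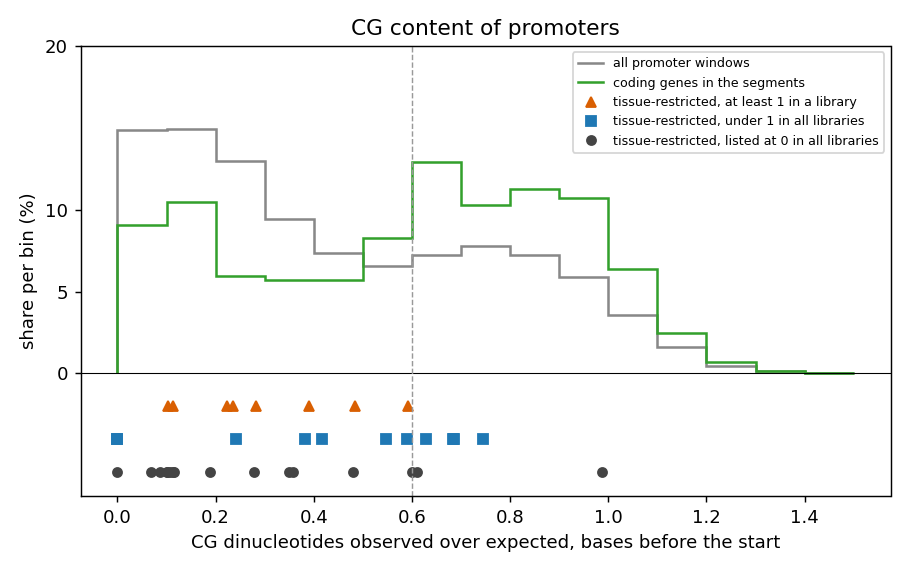
Share of promoter windows (vertical axis, percent per bin) by the ratio of observed to expected CG in the bases before the start (horizontal axis), for all windows and for coding genes of the usable segments, with the matched tissue-restricted genes as points below the axis by expression class. Of the 35 points, 6 lie at or beyond the dashed line at 0.6, and none of these is a gene that reached a value of 1. Only 8 of the 35 did, so nothing is read from this.

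Most of the set was silent or nearly so in LSK cells. In all 3 libraries 34 of the 45 genes stayed under a value of 1, and 18 of these were listed at exactly 0 throughout. The number at or above 1 was 8 for WT (17.8%), 8 for hemizygous (17.8%) and 11 for homozygous cells (24.4%), whereas of the 1061 coding genes in the segments 69.3%, 69.6% and 69.7% reached it. Of those coding genes 16.8% were listed at 0 in all libraries, against 40.0% of the tissue-restricted set. The set was chosen for assumed silence with earlier results of these data known, which may favour both contrasts. The plot of cumulative levels shows the 2 distributions in each library.

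**Figure D2:**
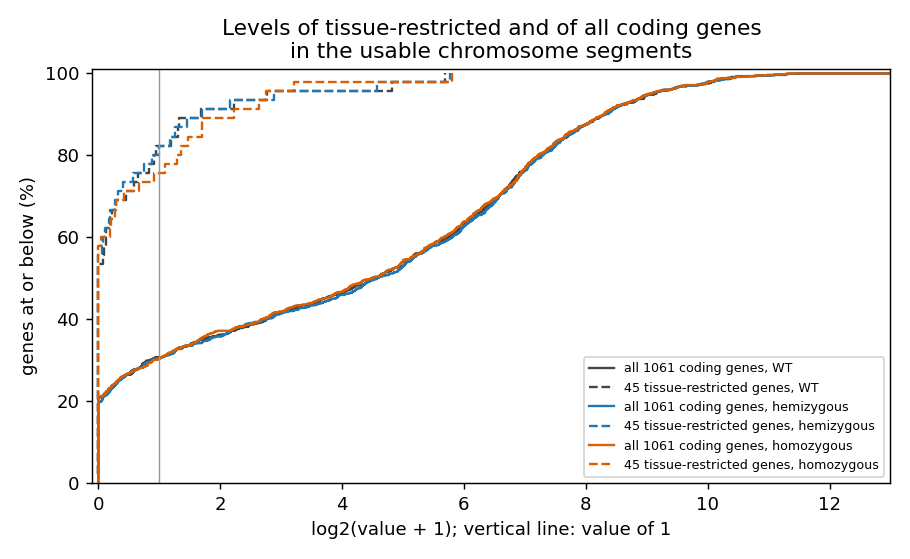
Cumulative share of genes (vertical axis, percent) by level, as log2 of value + 1 (horizontal axis), for the 45 tissue-restricted genes (dashed) and all 1061 coding genes of the usable segments (solid) in each library. The dashed lines stand far above the solid ones at low levels in every library, and the homozygous dashed line crosses a value of 1 lowest, with 11 genes at or above it.

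The assumption of silence failed most clearly for Muc13 and Popdc2, the highest of the 8 genes that reached a value of 1 in every library. The others of the 8 were Mmp12, Ahsg, Robo1, Apod, Gap43 and Actn3, at lower values. Muc13, a transmembrane mucin best known from the gut, had values of 50.5, 53.9 and 55.1. These levels exceeded those of 41.6% to 44.2% of the coding genes that reached 1, so the gene belongs among the moderately expressed ones here. Its plain ratio to WT was 1.07 (0.95 to 1.20) in the hemizygous and 1.09 (0.97 to 1.23) in the homozygous library, both with an interval that included 1. Gm15657 overlaps 6.06% of its exon bases on the opposite strand, at 9.08, 13.5 and 13.5, and without a stated strand setting reads of the shared bases cannot be assigned.

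Popdc2, a cyclic AMP-binding membrane protein of the popeye family known from heart and skeletal muscle, had values of 27.3, 22.7 and 8.31. The first 2 libraries were close and the homozygous library was low. In such bulk libraries fewer cells that express a gene and less RNA per cell cannot be told apart. The estimates stood for 70.1, 61.4 and 20.3 fragments. The plain ratio was 0.83 (0.58 to 1.18) for hemizygous versus WT and 0.30 (0.17 to 0.50) for homozygous versus WT, and with the longest transcript the latter interval was 0.23 to 0.41. The 2 comparisons share the WT library. Exons overlap on the same strand with Gm21987 over 3.77% of the bases, a gene that was listed at 0 in the WT library. Actn3, the fast-fibre alpha-actinin of skeletal muscle and the other muscle gene of the set, was at 1.29, 1.75 and 1.46, from 9.05, 12.9 and 9.73 fragments, and its ratios lay within counting error.

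The 10 pluripotency and germline genes were at the bottom of the scale. Summed over all 10 there were 5.38 estimated fragments for WT (95% interval 1.62 to 11.7), 5.13 for hemizygous (1.62 to 11.7) and 5.94 for homozygous cells (2.20 to 13.1). The sums lay within counting error of each other. For 5 of the 10 genes the transcript was so short that 3 fragments exceed a value of 1. Catsper1, a sperm calcium channel, Ropn1, a sperm tail protein, and the protamine cluster genes Prm2 and Prm3 were listed at 0 in every library. Dppa2 and Dppa4, partner proteins of pluripotent cells, and Morc1, which represses transposons in male germ cells, were chosen for mention after their values were seen. Dppa2 was at 0.14, 0.13 and 0.15, about 1.14 fragments in each library. Dppa4 was at 0, 0 and 0.22, a single estimated fragment (0.91) in the homozygous library. Morc1 was at 0.17, 0.25 and 0, which stood for 1.99, 2.98 and 0 fragments, so the homozygous library was the one without any. Tekt5, a tektin of sperm flagella, was at 0.23, 0 and 0.16, at most 1.25 fragments. Of the 50-base stretches of Dppa2 and Dppa4, 29.1% and 31.3% also occur in other genes, chiefly Gm9788 and Gm14058.

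Tnp2, transition protein 2, which takes part in the replacement of histones by protamines in spermatids, was at 0, 0.68 and 2.25. It was the 1 germline gene to reach a value of 1, in the homozygous library. With a transcript of 554 bases, these values stood for 0, 1.02 and 3.06 fragments. No fold is given: the WT and hemizygous values lie under the 3 fragments that a count of 0 allows and the homozygous value lies at them. That limit corresponds to a value of 2.10 in the WT library. Prm1, protamine 1, its neighbour in the same cluster, was the other way round, at 0.93 in the WT library from 1.00 fragment and at 0 in both transgenic libraries. Of a separate list of 35 germline genes known for promoter methylation, 1 lay in the segments: the gene listed as Spag6, a sperm flagellum protein, was at 0.67, 1.92 and 1.35, from 1.86, 5.62 and 3.55 fragments.

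**Figure D3:**
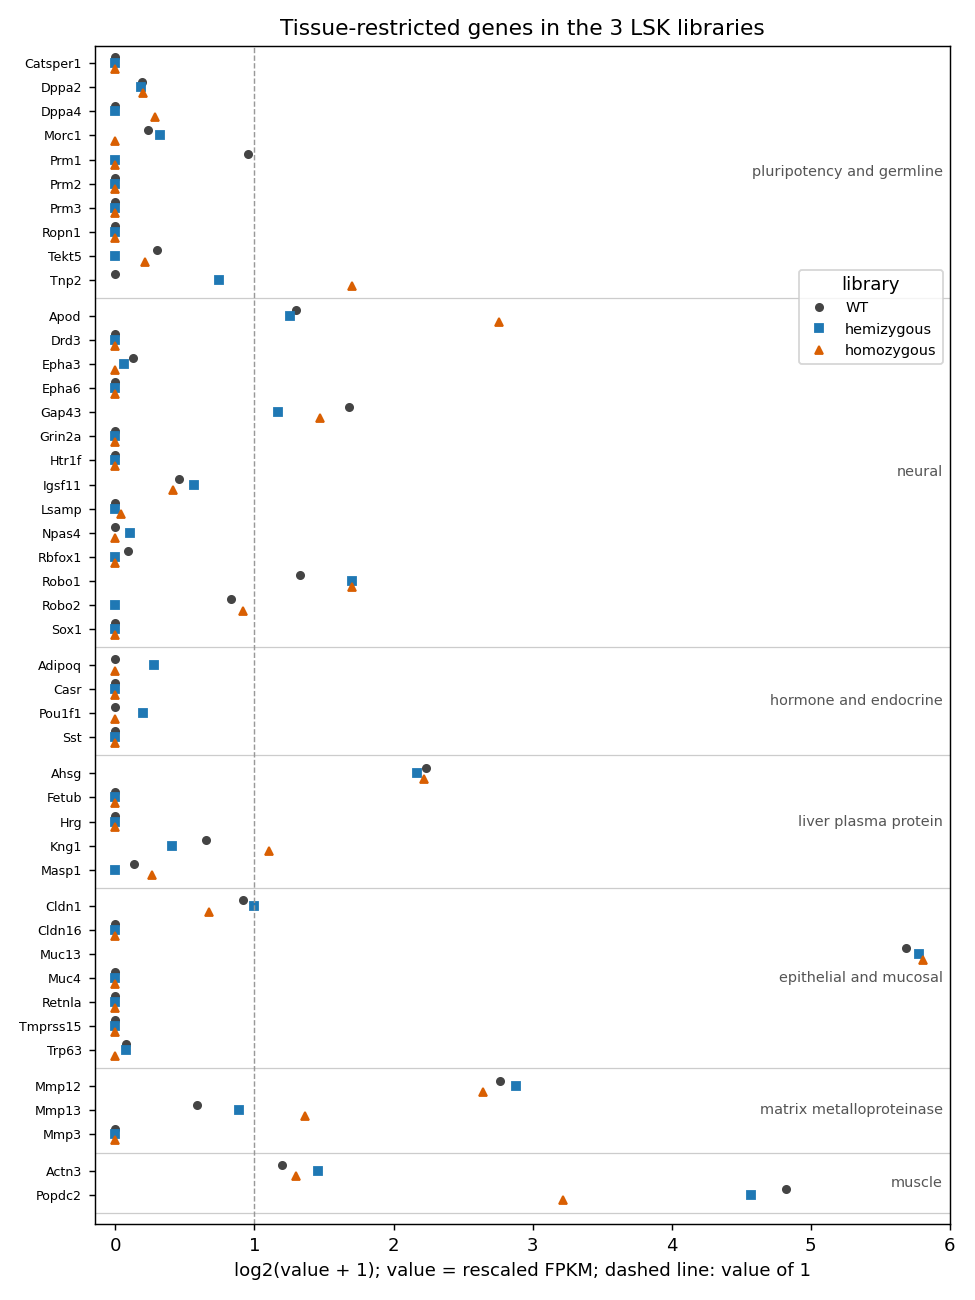
Level of each of the 45 tissue-restricted genes as log2 of value + 1 (horizontal axis) in the WT, hemizygous and homozygous libraries, grouped by role, with 1 point per library and a dashed line at a value of 1. Muc13 and Popdc2 stand far to the right, 34 genes stay left of the line in all libraries, and Tnp2, Kng1 and Mmp13 cross it in the homozygous library alone.

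Among 14 neural genes, 3 reached a value of 1, and they did so in every library. Gap43, a growth cone protein, was at 2.21, 1.25 and 1.77, and Robo1, a receptor for Slit guidance cues, was at 1.51, 2.25 and 2.25. Gap43 was highest and Robo1 lowest in the WT library. Every ratio of Gap43 had an interval that included 1, and the ratio of Robo1 to WT was 1.49 in both transgenic libraries. For the homozygous library its interval ran from 0.67 to 3.23 with the median transcript and from 1.00 to 2.24, just above 1, with the longest. For the hemizygous library it ran from 0.69 to 3.20 and, just above 1, from 1.00 to 2.20. Robo2, the neighbour of Robo1 on chromosome 16, was at 0.78, 0 and 0.89. The WT and homozygous values stood for 11.4 and 12.4 fragments, and the upper limit of the ratio of hemizygous to WT was 0.38. The hemizygous library was thus the low one, not the homozygous. An exact 0 in such a table can also be a failed estimate, and although its status was OK this was not tested.

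Apod, the lipocalin apolipoprotein D of glia, skin and connective tissue, was at 1.47, 1.39 and 5.77. The homozygous library stood apart from the other 2. The plain ratio for homozygous versus WT was 3.93 (95% counting interval 1.02 to 21.5), from 2.96 and 11.1 fragments. With the median transcript, the 3 fragments that a count of 0 allows correspond to values of 1.48 (WT) and 1.41 (hemizygous). The WT and hemizygous values of Apod lay just under these, so the size of the ratio is uncertain. With the longest transcript the interval was 2.03 to 8.63. The basement membrane genes Col4a1 and Col4a2, the 2 members of a list of 12 vessel wall and stroma genes that lay in the segments, were at 25.5, 31.7 and 45.2 and at 27.1, 36.4 and 54.1, and so were highest in the same library. Their part in the result was not tested. Drd3, Htr1f, Grin2a, Epha6 and Sox1, which encode a dopamine receptor, a serotonin receptor, a glutamate receptor subunit, an ephrin receptor and a transcription factor, were listed at 0 in every library. The other 5 neural genes, Epha3, Igsf11, Lsamp, Npas4 and Rbfox1, held at most 1.46 estimated fragments in any library with the median transcript. With the longest, Igsf11 held 4.93, 6.58 and 4.15 fragments and the other 4 at most 2.00. Of a further list of 20 neuron and glia markers, the 5 in the segments stayed between 0 and 0.24.

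The liver genes bear on hepatocytes, the parenchymal cells of the organ from which the LSK cells were sorted. Ahsg, the plasma protein fetuin-A, was at 3.70, 3.49 and 3.66, from 16.6, 16.5 and 15.7 fragments, and was level across the libraries. Its ratio for homozygous versus WT was 0.99 (0.47 to 2.08). Fetub, a second fetuin, and Hrg, the histidine-rich glycoprotein of plasma, were listed at 0 throughout, and Masp1, a protease of the lectin pathway of complement, was at 0.10, 0 and 0.20. Kng1, kininogen 1, the precursor of bradykinin, was at 0.57, 0.33 and 1.15, and the homozygous library was the highest. Those values stood for 3.94, 2.38 and 7.54 fragments, and the ratio for homozygous versus WT of 2.01 had an interval from 0.56 to 9.53. Of the 50-base stretches of Kng1, 17.2% also occur in other genes, chiefly its paralog Kng2, which was at 0, 0 and 0.53. Of 19 listed hepatocyte genes, 5 lay in the segments, 4 of them genes of the present set.

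Matrix metalloproteinases are secreted enzymes that degrade extracellular matrix. Mmp12, the macrophage elastase, was at 5.80, 6.37 and 5.24, with ratios to WT of 1.10 (0.66 to 1.90) and 0.90 (0.51 to 1.60). Mmp13, a collagenase of cartilage, bone and stroma, was at 0.50, 0.85 and 1.57, a value that was lowest in the WT and highest in the homozygous library. It has 1 annotated transcript, and the values stood for 4.99, 8.94 and 14.9 fragments. The ratio was 1.70 (0.51 to 6.50) for hemizygous versus WT and 3.14 (1.09 to 11.1) for homozygous versus WT. Mmp3, stromelysin, a neighbour of both on chromosome 9, was listed at 0 in every library. Col4a1 and Col4a2 were highest in the homozygous library here as well, and their part was not tested.

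Epithelial and endocrine genes other than Muc13 stayed under 1. Cldn1, a tight junction claudin, came closest, at 0.89, 1.00 (short of 1 before rounding) and 0.59, from 12.6, 14.8 and 7.99 fragments. Cldn8 and Cldn17, the 2 of 15 epithelium and skin markers in the segments, were at 0, 0.11 and 0 and at 0 throughout, and none of 16 listed muscle markers lay there. Cldn16, the mucin Muc4, the secreted resistin-like protein Retnla and the intestinal protease Tmprss15 were listed at 0 in every library. Trp63, the transcription factor of stratified epithelia, was at 0.06, 0.05 and 0. Of the 4 endocrine genes, Sst (somatostatin) and Casr (the calcium-sensing receptor) were at 0 throughout. Adipoq (adiponectin) and Pou1f1 (a pituitary transcription factor) had a value in the hemizygous library alone, 0.21 and 0.15, which stood for 0.65 and 0.70 fragments with the median transcript and 1.00 and 1.29 with the longest. As a set outside these genes, all 63 olfactory and vomeronasal receptor and hair keratin-associated genes in the segments were listed at 0 in all 3 libraries.

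How low a level the values of 0 allow depended on transcript length. For a gene with a count of 0, up to 3 fragments are allowed, and over the 18 genes at 0 in every library that limit ran from a value of 0.15 to one of 3.72, with a median of 0.56. For 13 of the 18 it was under a value of 1 in all libraries. For the other 5, Prm2, Prm3, Ropn1, Retnla and Sst, a count of 0 does not exclude a value of 1 at this depth. The 34 genes under 1 in all libraries held 33.5 fragments together for WT (22.7 to 46.3), 24.0 for hemizygous (15.4 to 35.7) and 26.5 for homozygous cells (17.0 to 38.1). With the longest transcript the sums were 58.0, 34.2 and 50.2. Tnp2, Mmp13 and Kng1 are left out of these sums because they reached 1 in the homozygous library, so the sums do not bear on a gain of expression. Of the 34, 11 had a value above 0 for WT, 9 for hemizygous and 8 for homozygous cells.

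**Figure D4:**
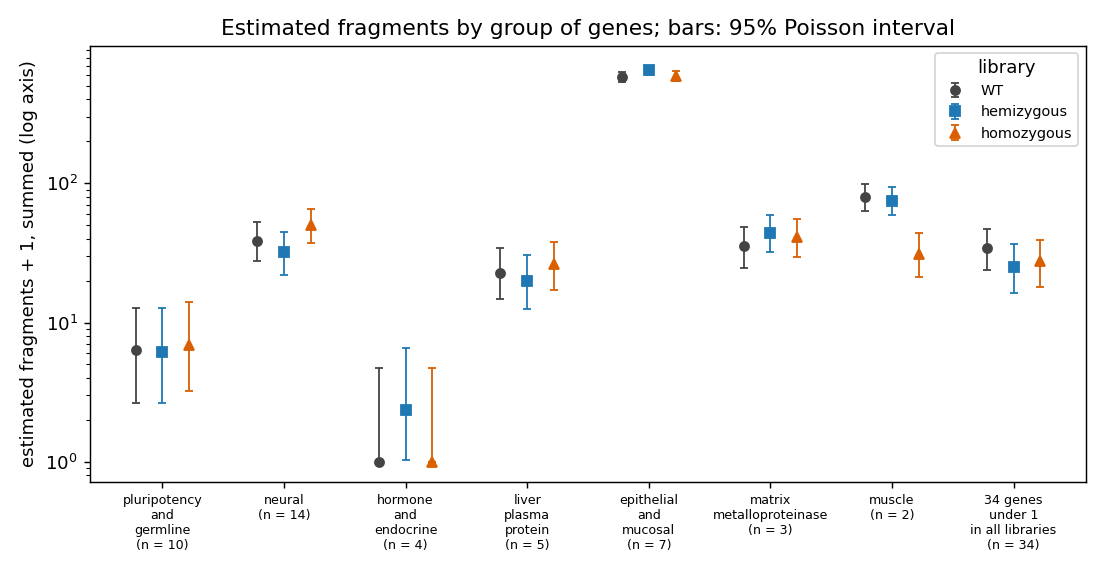
Estimated fragments plus 1, summed over the genes of each group (vertical axis, log scale), in the WT, hemizygous and homozygous libraries, with 95% Poisson intervals for counting error. The germline sums lie at 5.38, 5.13 and 5.94 before 1 is added, and the muscle sum, which is mostly Popdc2, is lower in the homozygous library.

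Homozygous cells were set against WT cells to ask whether genes silent in WT become expressed when both alleles carry the transgene. Of the 37 genes of the set under 1 in the WT library, 3 reached 1 in the homozygous library, Tnp2, Mmp13 and Kng1, which is 8.11%. The same step was made by 16 of 326 coding genes (4.91%). None of the 8 genes at or above 1 in WT fell under it, against 1.50% of coding genes. The 3 genes had 3.06, 14.9 and 7.54 estimated fragments in the homozygous library. The interval of the plain ratio lay above 1 for Mmp13 and Apod and below 1 for Popdc2, among 11 genes measured, that is, with a value of 1 or more in at least 1 of the libraries compared. Mmp13 was measured only through the homozygous library, where it is high, so its place above 1 is favoured by that rule. Counting intervals lay above 1 for 15.0% of coding genes and below 1 for 18.8%, so such an interval was common between these libraries.

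On the scale of log2(value + 1), where changes of low genes come out too small, a gene counted as higher or lower from 1 or -1 on. Apod (1.46) was higher and Popdc2 (-1.61) was lower in the homozygous than in the WT library. The WT value of Apod lay under the 3 fragments that a count of 0 allows, with the median transcript. The rule also counted Tnp2 as higher, which makes 2 higher and 1 lower of 11 genes measured, but Tnp2 passed on 3.06 fragments against 0, and the interval of its plain ratio, with a lower limit of 0.43 and no upper limit, included 1. Of the coding genes 1.33% were higher and 1.86% lower. The median ratio was 0.12 for the 11 genes and -0.04 for all 751 coding genes measured. Tnp2, Mmp13 and Kng1 were measured only through the homozygous library, where they are high, which pushes the median of the 11 upward by construction, so nothing is read from it. Of the 11, 7 lay within 1.5-fold, a lower share than the 91.3% of the coding genes. Tnp2 and Mmp13 are among those outside it and were measured only through the homozygous library, so nothing is read from this share either. When each library was scaled to the same sum, which moves the median of all coding genes to 0.37, Apod and Popdc2 stayed past the limits and the ratios of Ahsg (-0.01), Gap43 (-0.21) and Mmp12 (-0.12) turned to 0.33, 0.07 and 0.24. Over all coding genes the split of 10 higher and 14 lower became 29 and 7 under that scaling.

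**Figure D5:**
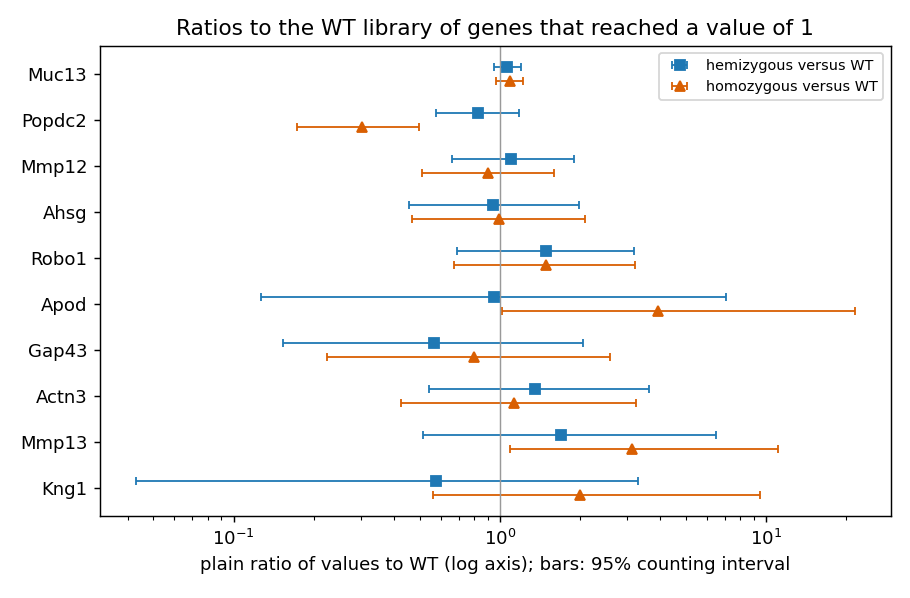
Plain ratio of values to the WT library (horizontal log axis) with 95% counting intervals for 10 of the 11 genes that reached a value of 1, in the hemizygous and homozygous libraries; Tnp2 is left out because it was at 0 in WT. The homozygous intervals of Popdc2 (0.17 to 0.50), Apod and Mmp13 do not include 1, and those of the other genes do.

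Hemizygous cells were set against the same WT library to ask this of a single transgenic allele. None of the 37 genes under 1 in WT reached 1 in the hemizygous library, while 3.68% of such coding genes did, and none of the 8 at or above 1 fell under it, while 1.22% of coding genes did. Of the 8 genes measured, none passed a log2 ratio of 1 or -1, as against 0.669% of coding genes in each direction. The ratios ran from -0.51 for Gap43 to 0.37 for Robo1, with a median of 0.02 beside 0.03 for all coding genes measured. Robo2, which was under 1 in both libraries and so was not measured, had a log2 ratio of -0.83. Every gene measured lay within 1.5-fold on that scale, as did 95.05% of coding genes. At the median transcript length none had a counting interval of the plain ratio that left out 1. Of coding genes, 19.0% had such an interval above 1 and 13.1% below it. With the longest transcript the interval of Robo1 lay just above 1.

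Homozygous cells were also set against hemizygous cells, a comparison that shares a library with each of the other comparisons. Apod was higher (1.50) and Popdc2 lower (-1.35), 1 gene each of 11 measured, beside 0.931% and 1.46% of coding genes. The hemizygous value of Apod lay under the 3 fragments that a count of 0 allows, with the median transcript. The plain ratios were 4.14 (1.07 to 22.6) for Apod and 0.37 (0.21 to 0.61) for Popdc2, the 1 gene each of the 11 whose interval lay above or below 1, beside 9.97% and 21.0% of coding genes. Kng1 (0.69), Mmp13 (0.47) and, only just, Tnp2 were short of the rule, with counting intervals of the plain ratio that included 1. Tnp2 stood on 3.06 against 1.02 fragments. Kng1, Mmp13 and Tnp2 were measured only through the homozygous library, where they are high. Robo2, under 1 in both libraries and so not measured, had a log2 ratio of 0.92, and the lower limit of its plain ratio was 3.07. For Muc13 the ratio was 1.02 (0.91 to 1.15).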

How the data were processed

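The values were deposited by the authors as FPKM per gene, with a status, per the file headers. Per the submitters' processing notes, the tools were TopHat2, Bowtie2 and Cufflinks and the build mm9. No version, annotation or strand setting is stated in those notes. The FPKM sums were too large for the unit, so all libraries were divided by 1 factor, 4246, which brings the mean sum over genes other than small RNA and short antigen receptor segment genes to 1000000. Many constitutive genes were listed near 0 outside runs at chromosome starts. A break was fitted per chromosome to the share of coding genes with a mean of at least 200000 deposited FPKM, and 10 segments with a log likelihood gain of at least 10 were kept, a limit set after the values were seen. GENCODE M21 (GRCm38) gave gene types, order and lengths. Low values times the transcript length less 200 bases were whole multiples of 1 unit, within 0.05, for 69.4% to 71.8%. Every gene with a value of at least 1 in a library was named, with the 3 highest of the others; further genes were named outside this rule after their values were seen. The genes, groups and lists were chosen with earlier results of these data known. Scripts were tested on simulated data and run in Python 3.11.15, NumPy 2.4.6 and SciPy 1.17.1. Alternatives were other scalings, pseudocounts, minimums, statuses and transcript lengths.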

Additional observations from a re-analysis of the deposited data

How the results depend on the processing

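Each setting was changed alone. No paired analysis was possible because each genotype had 1 library. Keeping every status and median-ratio scaling left all counts of genes within 1.5 times, and no log2 ratio past 1 or -1 changed sign under any setting. With each library scaled to the same sum, the median log2 ratio of the genes measured was 0.45 for homozygous versus WT. It was 0.38 for homozygous versus hemizygous, where 3 genes were higher, beside 2.12% of coding genes. The ratio of Muc13 was 0.55 and 0.30 in these comparisons. Under this scaling 4 genes under 1 in WT reached 1 in the homozygous library, beside 7.01% of such coding genes. With a pseudocount of 0.1, homozygous versus hemizygous had 3 higher genes, beside 1.99% of coding genes. With a minimum of 5, 1 gene was higher for homozygous versus WT, beside 1.07% of coding genes. At a minimum of 0.5 for expression, 2 genes rose past it and 3 fell under it in the hemizygous library, beside 5.88% and 2.85% of such coding genes. In the homozygous library 2 rose past it and 1 fell under it, beside 5.19% and 2.07%. At a minimum of 2, 5, 5 and 7 genes reached it in WT, hemizygous and homozygous cells, beside 65.6%, 66.0% and 65.8% of coding genes. In the hemizygous library 1 rose past it and 1 fell under it, beside 3.56% and 1.29% of such coding genes. In the homozygous library 3 rose past it and 1 fell under it, beside 3.84% and 1.72%. Fewer genes can pass a higher minimum by its construction; otherwise the cause was not tested. The longest transcript gave 58.0, 34.2 and 50.2 fragments for the 34 genes under 1 in the WT, hemizygous and homozygous libraries, against 33.5, 24.0 and 26.5. Keeping segments at a gain of 5, chosen after seeing the data, changed no count of these genes.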
